A study of Homo sapiens with 54 samples.

Results

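Gene expression after 24 h of methapyrilene was compared with gene expression after 24 h of solvent in HepG2, a line of human liver cancer cells on which compounds are often tested for effects on hepatocytes. The comparison used 9 of the 54 arrays of a study of 7 compounds at 24 h and 48 h, chosen by the compound and the time in their labels. The 3 methapyrilene arrays came from cultures exposed to methapyrilene hydrochloride at 114 µM for 24 h. The 6 solvent arrays came from cultures exposed to dimethyl sulfoxide (DMSO) at 0.5 percent for 24 h, in 2 exposures of 3 biological replicates each. Each methapyrilene array had 2 DMSO arrays of the same replicate number as its labelled controls. Cultures exposed for 48 h to methapyrilene at 114 µM (3 arrays) or to DMSO at 0.5 percent (6 arrays), and cultures exposed for 24 h to nifedipine at 420 µM (3 arrays) or to tolbutamide at 2.1 mM (3 arrays), are used below for comparison.

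Methapyrilene is an antihistamine that blocks the histamine H1 receptor. It was sold as a sleep aid and withdrawn after it was found to cause liver tumours in rats, and it is used in toxicology as an example of a carcinogen that does not act by damaging DNA directly. In rat liver it is converted to reactive metabolites by cytochrome P450 enzymes. HepG2 cells carry low levels of many of these enzymes, which limits them as a model of a liver that activates the drug.

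Expression was given for 20056 Ensembl gene IDs on a log2 scale, on which a difference of 1 is a doubling. RMA, the method behind the values, normalizes arrays to each other, and a change in the total amount of RNA is removed by that step. In values from whole cultures, fewer cells of a kind and less RNA per cell cannot be told apart. The files do not pair the IDs with gene names, and 0 IDs could be matched to a symbol. Genes are therefore given by ID, with no role, and with at most 2 higher and 2 lower in each comparison. For the same reason, pathways were not counted and the identity of the cells was not checked against liver markers. The medians of the 9 arrays lay between 5.70 and 5.99. The slope of an array on the mean of all 54 arrays, a measure of its range of values, was between 1.02 and 1.04 in the methapyrilene arrays and between 1.01 and 1.04 in 5 of the DMSO arrays. It was 0.911 in DMSO 24 h exposure 2 replicate 2, whose range was compressed. The number of calls, the overlap of the called IDs, their sharing with 48 h and the calls of named IDs that this array moves are also given without it. Other counts, such as those by level and of the 15 largest changes, are given only with it. Precision is limited by the number of arrays, with 3 under methapyrilene.

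A small share of the measured genes was called changed under methapyrilene at 24 h, mostly by less than a doubling. In limma, with all 54 arrays in the fit and the replicate number within each time as a block, 307 of the 20056 IDs (1.53 percent) differed from DMSO at an adjusted p under 0.05 (Benjamini-Hochberg). Of these, 125 rose (0.623 percent of all IDs) and 182 fell (0.907 percent). At an unadjusted p under 0.05 in limma there were 1648 IDs, where a share of about 0.05 of all IDs is expected with no difference. An ID that was not called is not shown to be unchanged. The rises ran from 0.28 to 2.56 on the log2 scale with a median of 0.71, or 1.64-fold. The falls ran from -1.46 to -0.29 with a median of -0.69, or 1.61-fold lower. The median change over all IDs was -0.03, and 95.5 percent of all IDs had a fitted change within 0.5 in either direction. Changes beyond 1 were found in 24 of the rises and in 25 of the falls. A further 21 IDs had a fitted change beyond 1 (16 above, 5 below) and were not called. The median standard error was 0.37 for these 21 IDs, 0.15 for the called IDs and 0.16 for all IDs.

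The number of calls depended on which arrays were in the fit, while the 307 kept their signs. Both groups hold each replicate number equally often, so the fitted change cannot move without arrays of other groups or without the block. The signs were put to the test only in settings that dropped or altered some of the 9 arrays. Without DMSO 24 h exposure 2 replicate 2, 298 IDs were called (104 rose, 194 fell), of which 254 were among the 307. All 307 kept their sign and no change moved by more than 0.24. Without methapyrilene replicate 1, 2 or 3 the calls numbered 129 (39 rose, 90 fell), 168 (78 rose, 90 fell) and 168 (59 rose, 109 fell). Leaving out piperonyl butoxide 48 h replicate 1, an array of another compound and time with the most compressed range of all 54, gave 474 calls (201 rose, 273 fell). Leaving out all 4 arrays with a slope under 0.95, which include DMSO 24 h exposure 2 replicate 2, gave 772 calls (274 rose, 498 fell), of which 304 were among the 307. With only the 9 arrays compared in the fit, 90 IDs were called (35 rose, 55 fell). Without the replicate block 164 IDs were called (57 rose, 107 fell), all among the 307. Falls outnumbered rises in each of these settings. In the main fit 40.7 percent of the called IDs rose, and 41.3 percent of all IDs had a positive change. The excess of falls was thus close to that over all IDs and is not read as particular to the called ones.

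**Figure D1:**
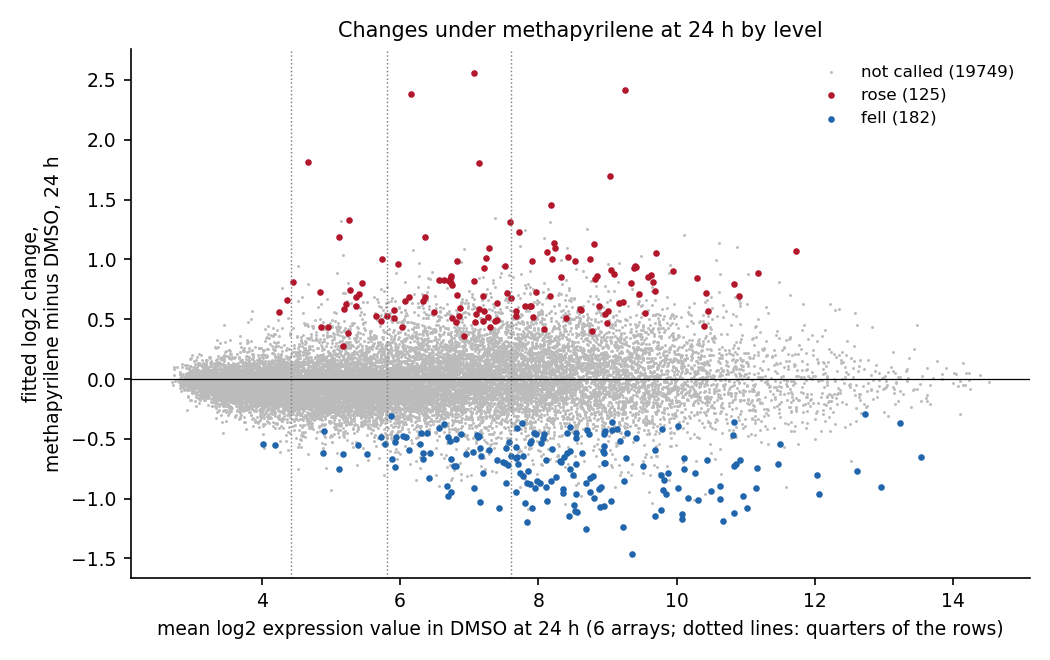
Fitted log2 change under methapyrilene at 24 h (vertical axis, methapyrilene minus DMSO) against the mean log2 value of each ID in the 6 DMSO arrays (horizontal axis), with 1 point per ID, red for the 125 rises, blue for the 182 falls and grey for the 19749 IDs not called. Most points lie close to 0, the largest rises reach 2.56 and the largest falls -1.46, and called IDs are more frequent to the right.

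The largest rises were seen in ENSG00000151012_at and ENSG00000070669_at. ENSG00000151012_at had log2 values of 9.69, 9.91 and 9.27 in methapyrilene replicates 1, 2 and 3, against a lowest value of 6.71, a median of 6.99 and a highest value of 7.53 in the 6 DMSO arrays. Every methapyrilene array was above every DMSO array. The means were 9.62 ± 0.32 (SD, n = 3) under methapyrilene and 7.07 ± 0.38 (SD, n = 6) in DMSO, a rise of 2.56 (SE 0.30, limma adjusted p = 1.39e-06), or 5.88-fold. ENSG00000070669_at had values of 12.02, 11.54 and 11.44 under methapyrilene, against a lowest of 8.79, a median of 9.37 and a highest of 9.50 in DMSO. Here too the groups did not overlap, and all 3 methapyrilene arrays were higher. The rise was 2.41 (SE 0.27, limma adjusted p = 5.69e-07), or 5.33-fold.

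The largest falls were seen in ENSG00000107984_at and ENSG00000100297_at. ENSG00000107984_at had values of 8.04, 7.98 and 7.67 under methapyrilene, against a lowest of 8.01, a median of 9.60 and a highest of 9.84 in DMSO. The groups overlapped through 1 array only, since 8.01 is the value of DMSO 24 h exposure 2 replicate 2 and the next lowest DMSO array was at 9.33. The fall was -1.46 (SE 0.30, limma adjusted p = 0.00351), or 2.75-fold, and -1.70 (SE 0.28, adjusted p = 2.14e-04) without that array. Over all settings its adjusted p lay between 4.17e-09 and 0.155. The call was lost with only the 9 arrays in the fit (0.155), with the second DMSO exposure alone (0.127) and without methapyrilene replicate 3 (0.0736). ENSG00000100297_at had values of 7.72, 7.11 and 7.45 under methapyrilene, against a lowest of 8.24, a median of 8.66 and a highest of 9.30 in DMSO, so all 3 methapyrilene arrays were lower. It fell by 1.26 on the log2 scale (SE 0.16, limma adjusted p = 4.74e-06), or 2.39-fold. ENSG00000151012_at, ENSG00000070669_at and ENSG00000100297_at kept the call in all 65 alternative settings tried.

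**Figure D2:**
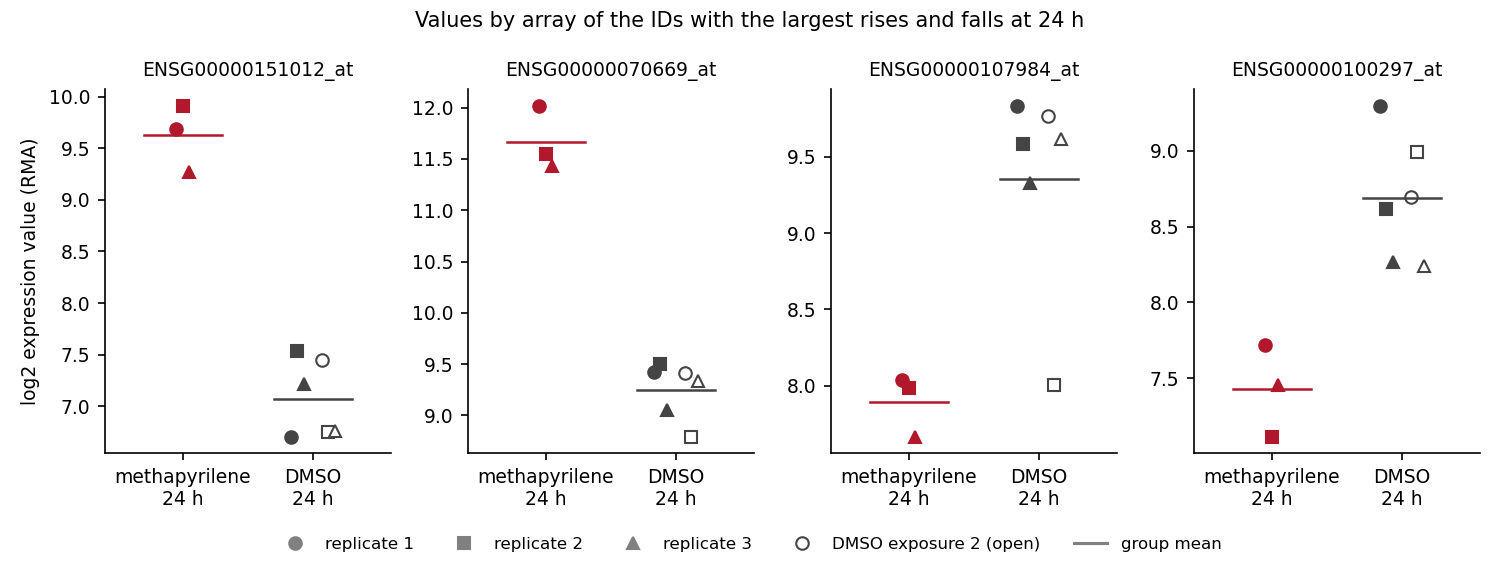
Log2 expression values by array (vertical axis, RMA) of the 2 IDs with the largest rises and the 2 with the largest falls, in the 3 methapyrilene arrays (red) and the 6 DMSO arrays (dark grey, open for exposure 2) at 24 h; symbols mark the replicate number and lines the group means. The groups are apart in 3 of the panels, and in the panel of ENSG00000107984_at a single DMSO array, at 8.01, lies among the methapyrilene arrays.

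The called changes were seen in all biological replicates. Against the mean of its 2 matched DMSO arrays, each of the 3 methapyrilene replicates was higher for all 125 rises and lower for all 182 falls. The median difference of the rises was 0.90, 0.60 and 0.68 in replicates 1, 2 and 3, and that of the falls was -0.80, -0.73 and -0.58. Replicate 2 had the widest spread of differences over all IDs, with an SD of 0.37 against 0.28 in replicate 1 and 0.22 in replicate 3, and 1 of its 2 matched DMSO arrays is the compressed one. Against the other matched array alone, the SD of replicate 2 was 0.27 and its medians were 0.59 for the rises and -0.73 for the falls, with all 125 rises higher and all 182 falls lower. Since calls favour IDs whose replicates move together, these counts describe the called IDs and are no separate support for them.

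**Figure D3:**
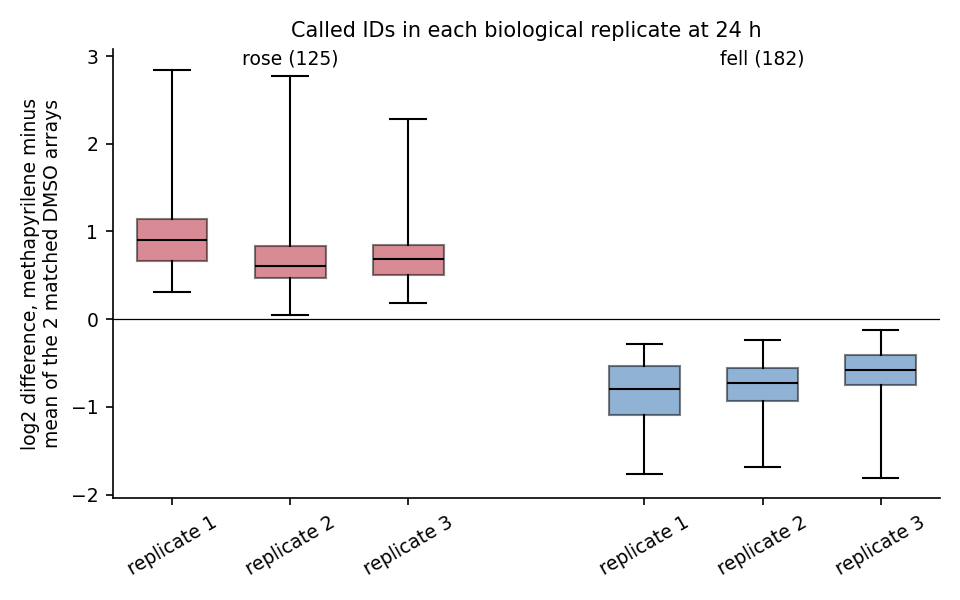
Log2 difference between each methapyrilene replicate and the mean of its 2 matched DMSO arrays (vertical axis) for the 125 rises (red) and the 182 falls (blue); boxes span the middle of the IDs, lines inside them are medians and whiskers reach the lowest and highest ID. All boxes and whiskers of the rises lie above 0 and all those of the falls below 0.

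Most of the called IDs had no overlap between the groups. Of the 125 rises, 100 had all 3 methapyrilene arrays above all 6 DMSO arrays, as did 400 (1.99 percent) of all IDs. Of the 182 falls, 144 had all 3 methapyrilene arrays below all 6 DMSO arrays, as did 501 (2.50 percent) of all IDs. Without DMSO 24 h exposure 2 replicate 2 there was no overlap in 105 of the 125 rises, against 584 (2.91 percent) of all IDs, and in 156 of the 182 falls, against 832 (4.15 percent) of all IDs. With all 6 DMSO arrays, the remaining 63 called IDs overlapped in at least 1 array. Conversely, 300 IDs with all methapyrilene arrays above and 357 with all of them below were not called.

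Calls were more frequent among IDs with higher log2 values. When all IDs were put into 4 groups of 5014 by their mean value in the DMSO arrays, 4, 28, 93 and 182 were called from the lowest to the highest group, or 0.0798, 0.558, 1.85 and 3.63 percent. In the lowest group 2 rose and 2 fell. In the second group 20 rose and 8 fell. In the third 46 rose and 47 fell, and in the highest 57 rose and 125 fell. The median DMSO value was 7.40 for the rises, 8.34 for the falls and 5.81 for all IDs. An array value depends on the probes of an ID as well as on the amount of its RNA, and the SD of the fitted changes also grew with the value, at 0.11, 0.19, 0.26 and 0.31 in the 4 groups. The part of probe response in this pattern was not tested.

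The 15 largest rises and the 15 largest falls were followed as groups, without naming more IDs. They were chosen by their 24 h change on these same arrays, so their lack of overlap at 24 h is no separate support. Their calls at 48 h rest on the same estimate of the spread per ID as those at 24 h. The 15 rises ran from 1.10 to 2.56 with a median of 1.33. Of them, 14 had no overlap between methapyrilene and DMSO arrays, against 1.99 percent of all IDs. At 48 h, 14 of the 15 were again called higher, against 2.36 percent of all IDs. The 48 h changes of the 15 lay between 0.70 and 2.09 with a median of 1.26. The 15 falls ran from -1.46 to -1.08 with a median of -1.14, and 13 of them had no overlap, against 2.50 percent of all IDs. At 48 h, 14 of the 15 falls were called lower, against 2.64 percent of all IDs, and 1 was not called. The 48 h changes of these 15 lay between -2.43 and 0.10 with a median of -1.59.

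The 24 h response was then set beside the response at 48 h, which was measured on other arrays with their own DMSO controls. Both times were in the same fit, with 1 estimate of the spread per ID. An ID with a small spread is therefore called more easily at both times. The sharing of calls is in part set by this and is not fully separate support. Most of the IDs called at 24 h were called in the same direction at 48 h, and many more were called at 48 h only. At 48 h, 473 IDs rose (2.36 percent of all IDs) and 529 fell (2.64 percent). Of the 125 rises at 24 h, 99 were called rises at 48 h, which is 79.2 percent of the 24 h list and 20.9 percent of the 48 h list. Of the 182 falls, 128 were called falls at 48 h, which is 70.3 percent of the 24 h list and 24.2 percent of the 48 h list. None of the 307 was called in the opposite direction (0 of 125 and 0 of 182), and 122 rises and 175 falls had the same sign at 48 h, when 39.7 percent of all IDs had a positive and 60.3 percent a negative change. Without methapyrilene 48 h replicate 1, 2 or 3, the 48 h rises and falls numbered 275 and 375, 244 and 316, and 305 and 324. They were 713 and 720 without piperonyl butoxide 48 h replicate 1, 296 and 336 without the replicate block, and 1290 and 1204 without the 4 arrays with a slope under 0.95, where 1 ID was called in opposite directions at the times. Without DMSO 24 h exposure 2 replicate 2, 82 of 104 rises at 24 h (78.8 percent) and 153 of 194 falls (78.9 percent) were called in the same direction at 48 h. Over these and the other settings that hold all comparisons, between 61.0 and 88.5 percent of the 24 h rises and between 63.9 and 93.3 percent of the 24 h falls of a setting were called at 48 h.

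The 24 h calls had close medians at both times. The median of the 125 rises was 0.71 at 24 h and 0.75 at 48 h, and 62 of them had the larger change at 48 h. The median of the 182 falls was -0.69 at 24 h and -0.70 at 48 h, and 95 of them had the larger change at 48 h. IDs called at 48 h only had smaller changes in the same direction at 24 h in most cases. The 374 rises called at 48 h only had a median change of 0.23 at 24 h and 0.60 at 48 h, with the same sign in 325. The 401 falls called at 48 h only had a median of -0.32 at 24 h and -0.72 at 48 h, with the same sign in 378. Of all IDs, 41.3 percent had a positive and 58.7 percent a negative change at 24 h. Each of these lists was chosen at 48 h, so the size of its 48 h median is raised by that choice, as are the 24 h medians of the 24 h lists.

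**Figure D4:**
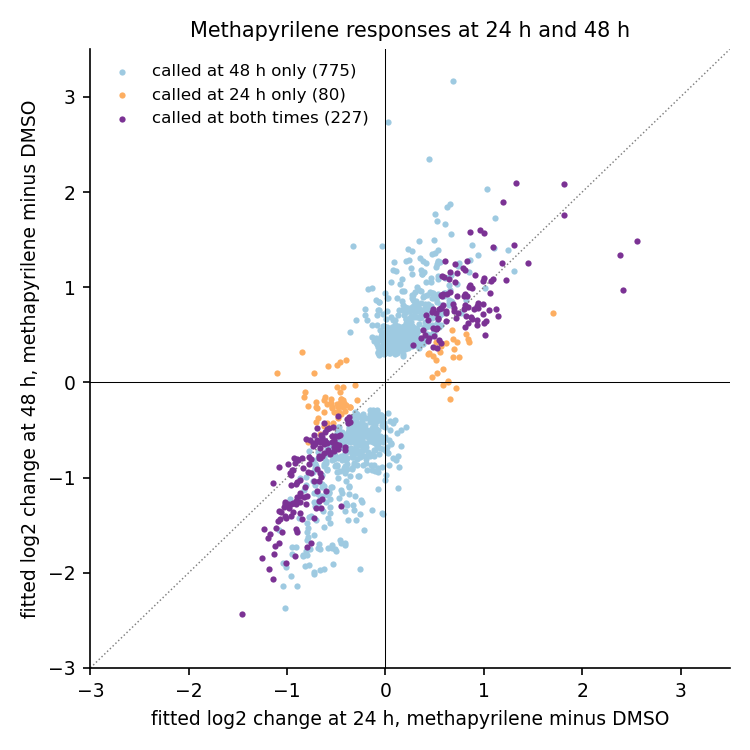
Fitted log2 change at 48 h (vertical axis) against that at 24 h (horizontal axis), methapyrilene minus DMSO of the same time, for the 1082 IDs called at either time: 227 at both times (purple), 80 at 24 h only (orange) and 775 at 48 h only (light blue). The purple points lie in the quadrants where both changes have the same sign, on both sides of the dotted line of equal change.

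A direct test of the difference between the times called few IDs. The change at 48 h minus the change at 24 h passed an adjusted p under 0.05 in limma for 18 IDs (0.0897 percent), of which 15 were higher and 3 lower, and 779 IDs had an unadjusted p under 0.05. With no difference in any ID, a share of about 0.05 of all IDs would have such an unadjusted p. The unadjusted count is therefore not read as further differences. Of the 18, 3 were called at 24 h and 16 at 48 h (13 rose, 3 fell). Over the 15 higher IDs the median change was -0.03 at 24 h and 1.04 at 48 h. Leaving out 1 methapyrilene array gave 5 (24 h replicate 1), 8 (24 h replicate 2) or 6 (48 h replicate 2) calls. The count was 5 (all higher) without the replicate block and 112 without the 4 arrays with a slope under 0.95.

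The 2 IDs with the largest positive difference between the times were not called at 24 h and rose at 48 h. ENSG00000078081_at had values of 3.71, 3.56 and 3.66 under methapyrilene at 24 h, against 3.44 to 3.79 in DMSO with a median of 3.60, and the groups overlapped. At 48 h it had 6.20, 7.10 and 6.07 under methapyrilene, against 3.58 to 3.91 in DMSO with a median of 3.72, with no overlap. The change was 0.03 (SE 0.18) at 24 h and 2.74 (SE 0.18) at 48 h, a difference of 2.70 (SE 0.25, limma adjusted p = 1.33e-08). ENSG00000163393_at had 5.16, 4.99 and 5.63 under methapyrilene at 24 h, against 4.28 to 4.95 in DMSO with a median of 4.52. All 3 methapyrilene arrays were above the DMSO arrays, but the change of 0.68 (SE 0.32) was not called in limma (adjusted p = 0.546). At 48 h it had 8.23, 8.62 and 7.19 under methapyrilene, against 4.59 to 5.40 in DMSO with a median of 4.77, and the difference between the times was 2.49 (SE 0.45, limma adjusted p = 0.0072). Over all settings this adjusted p lay between 2.39e-05 and 0.121, and the call was lost without methapyrilene 24 h replicate 1 (0.0605), 24 h replicate 2 (0.0501) or 48 h replicate 2 (0.121).

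Of the 3 IDs with a negative difference, 2 are named. ENSG00000139055_at had 7.44, 7.68 and 7.20 under methapyrilene at 24 h, against 7.93 to 8.19 in DMSO with a median of 8.06. All 3 methapyrilene arrays were lower, yet the change of -0.63 (SE 0.17) narrowly missed the threshold (limma adjusted p = 0.0508). At 48 h it had 5.87, 5.51 and 6.76 under methapyrilene, against 7.73 to 8.31 in DMSO, and the difference between the times was -1.33 (SE 0.24, limma adjusted p = 0.0072). Over all settings this adjusted p lay between 4.83e-04 and 0.177, and the call was lost without methapyrilene 24 h replicate 1 (0.0649), 24 h replicate 2 (0.0557), 48 h replicate 2 (0.177) or the replicate block (0.0682). ENSG00000256235_at had 9.48, 9.55 and 10.63 under methapyrilene at 24 h, against 9.04 to 10.93 in DMSO with a median of 9.80, and replicate 3 was the highest in both groups. At 48 h it had 8.97, 8.98 and 9.40 under methapyrilene, against 9.77 to 10.82 in DMSO with a median of 10.09. The difference of -1.04 (SE 0.22, limma adjusted p = 0.0432) was close to the threshold and was lost in 36 of 60 alternative settings, with an adjusted p between 0.0198 and 1.00. The settings that lost it include the fit without DMSO 24 h exposure 2 replicate 2 (adjusted p = 0.0952).

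The 24 h response was also compared directly with that to nifedipine, a blocker of voltage-gated calcium channels, and to tolbutamide, a sulfonylurea that closes ATP-sensitive potassium channels. Both were chosen as compounds like methapyrilene in earlier results, so a likeness between them is no separate result. Nifedipine was given at 420 µM and tolbutamide at 2.1 mM, against 114 µM for methapyrilene, so compound and dose cannot be told apart. All 3 compounds share the same DMSO arrays, so their changes against DMSO are given side by side and not correlated. The largest methapyrilene changes were chosen against those arrays, which shifts the changes of the other 2 compounds the same way. Over the 15 largest methapyrilene rises, with a median of 1.33, the changes against DMSO were -0.79 to 3.25 under nifedipine (median 1.62) and 0.03 to 2.65 under tolbutamide (median 1.13). In the direct comparison, 3 of the 15 differed between methapyrilene and nifedipine and 3 between methapyrilene and tolbutamide, with 7 and 8 at an unadjusted p under 0.05. Over the 15 largest falls, with a median of -1.14, the changes were -2.43 to -0.08 under nifedipine (median -1.28) and -1.85 to -0.55 under tolbutamide (median -0.95), and 2 of the 15 differed between methapyrilene and nifedipine directly, with 7 at an unadjusted p under 0.05. Between methapyrilene and tolbutamide limma called 0 of these 15 falls, with 1 at an unadjusted p under 0.05.

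The IDs with the largest methapyrilene changes have these changes against the shared DMSO arrays. ENSG00000151012_at changed by 2.56 under methapyrilene, 3.25 under nifedipine and 1.69 under tolbutamide, and ENSG00000070669_at by 2.41, 3.19 and 2.65 in the same order. ENSG00000107984_at changed by -1.46, -2.43 and -1.85, and ENSG00000100297_at by -1.26, -1.67 and -1.20. Each of these changes passed the threshold against DMSO, and none of the 4 IDs differed between methapyrilene and nifedipine or tolbutamide at an adjusted p under 0.05 in limma (the smallest was 0.243). A p that misses the threshold does not show that the compounds act alike.

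Against nifedipine, 275 IDs differed in limma (1.37 percent), of which 190 were higher under methapyrilene and 85 lower. At an unadjusted p under 0.05 there were 1610, where a share of about 0.05 of all IDs is expected with no difference. The IDs that differed had median changes near 0 under methapyrilene. Over the 190 IDs the median change against DMSO was 0.07 under methapyrilene and -0.73 under nifedipine, and over the 85 IDs it was 0.01 under methapyrilene and 0.69 under nifedipine. Differences beyond 1 were found in 69 of the 190 and in 20 of the 85. The count was 133 without methapyrilene replicate 1, 166 without methapyrilene replicate 3, 125 and 140 without nifedipine replicates 1 and 2, 413 without piperonyl butoxide 48 h replicate 1, 115 without the replicate block, and 866 (482 higher, 384 lower) without the 4 arrays with a slope under 0.95.

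Methapyrilene and nifedipine moved ENSG00000169174_at in opposite directions from DMSO. It had 10.36, 10.27 and 10.39 under methapyrilene, 7.78, 7.93 and 8.73 under nifedipine, 8.46, 9.31 and 8.73 under tolbutamide, and 9.06 to 9.74 in DMSO with a median of 9.39. All methapyrilene arrays were the highest of these groups and all nifedipine arrays lay below DMSO, while 1 of the tolbutamide arrays lay within the DMSO range. The methapyrilene change was 0.93 (SE 0.18, limma adjusted p = 0.00135) and the difference from nifedipine was 2.19 (SE 0.21, adjusted p = 1.11e-08), or 4.57-fold. ENSG00000211452_at had 8.87, 8.31 and 8.87 under methapyrilene and 6.07, 6.36 and 7.26 under nifedipine, with 7.49 to 8.74 in DMSO and a median of 7.96. The methapyrilene arrays lay above all nifedipine arrays and overlapped with DMSO. The ID differed by 2.12 (SE 0.26, limma adjusted p = 1.37e-06), although the change of 0.63 against DMSO was not called (adjusted p = 0.243).

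Among the IDs lower under methapyrilene than under nifedipine, neither of the named ones was called under methapyrilene against DMSO, with changes of 0.58 (adjusted p = 0.910) for ENSG00000108932_at and 0.67 (adjusted p = 0.449) for ENSG00000125772_at in limma. ENSG00000108932_at had 6.19, 7.02 and 6.73 under methapyrilene and 9.61, 9.55 and 8.36 under nifedipine, with 4.68 to 6.99 in DMSO and a median of 6.44. The difference was -2.53 (SE 0.61, limma adjusted p = 0.0187). Over all settings its adjusted p lay between 1.46e-05 and 0.205, and the call was lost without methapyrilene replicate 1 (0.205) or 3 (0.0775), without nifedipine replicate 1 (0.130) or 2 (0.194), and with arrays centred on the median (0.0526). ENSG00000125772_at had 6.10, 6.55 and 6.34 under methapyrilene and 8.31, 8.44 and 7.92 under nifedipine, with 5.07 to 6.05 in DMSO and a median of 5.77. All methapyrilene arrays lay below all nifedipine arrays and above all DMSO arrays, and the difference was -1.89 (SE 0.33, limma adjusted p = 5.54e-04), or 3.72-fold lower.

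Against tolbutamide, 67 IDs differed in limma (0.334 percent), of which 27 were higher under methapyrilene and 40 lower, and 1036 IDs had an unadjusted p under 0.05. A share of about 0.05 of all IDs would have such an unadjusted p with no difference. That count is therefore not read as further differences. Over the 27 higher IDs the median change against DMSO was 0.63 under methapyrilene and -0.28 under tolbutamide. Over the 40 lower IDs it was -0.21 under methapyrilene and 0.55 under tolbutamide. Differences beyond 1 were found in 14 of the 27 and in 10 of the 40. The larger direction was not the same in all settings, since renormalizing by cyclic loess gave 70 calls, 40 higher and 30 lower, and leaving out the replicate block gave 31, 16 higher and 15 lower. The count was 28, 33 and 26 without methapyrilene replicates 1, 2 and 3, 25, 32 and 28 without tolbutamide replicates 1, 2 and 3, 106 without piperonyl butoxide 48 h replicate 1 and 222 without the 4 arrays with a slope under 0.95.

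ENSG00000169174_at, described above, was also, among the called IDs, the one with the largest positive difference from tolbutamide, being 2.84-fold higher under methapyrilene (limma adjusted p = 6.07e-05). ENSG00000101670_at had 6.76, 6.04 and 6.61 under methapyrilene, 5.69, 5.69 and 5.70 under nifedipine, 5.04, 5.28 and 4.89 under tolbutamide, and 4.11 to 5.20 in DMSO with a median of 4.72. Every methapyrilene array was above every nifedipine, tolbutamide and DMSO array at 24 h. The difference from nifedipine, 0.78 (SE 0.28), was not called in limma (adjusted p = 0.264). Under nifedipine this ID also rose against DMSO, by 1.03 (limma adjusted p = 0.00485). The methapyrilene rise against DMSO was 1.81 (SE 0.25, limma adjusted p = 1.04e-05), or 3.51-fold, and the difference from tolbutamide was 1.40 (SE 0.28, adjusted p = 0.0112). Over all settings the adjusted p of that difference lay between 0.00331 and 0.153, and the call was lost with cyclic loess (0.0720), without methapyrilene replicate 1 (0.107) or 3 (0.0939) and without tolbutamide replicate 1 (0.0966) or 3 (0.153).

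Of the IDs called lower under methapyrilene than under tolbutamide, neither of the 2 with the largest difference was called against DMSO, with methapyrilene changes of -0.12 (limma adjusted p = 0.943) for ENSG00000129353_at and -0.47 (adjusted p = 0.745) for ENSG00000265972_at. ENSG00000129353_at had 5.09, 4.98 and 5.01 under methapyrilene and 7.23, 7.03 and 6.93 under tolbutamide, with 5.02 to 5.36 in DMSO and a median of 5.11. The tolbutamide arrays stood apart from the methapyrilene, nifedipine and DMSO arrays at 24 h, and the difference was -2.04 (SE 0.20, limma adjusted p = 2.81e-08). ENSG00000265972_at had 7.90, 7.05 and 7.19 under methapyrilene and 9.83, 9.40 and 9.05 under tolbutamide, with 7.04 to 9.03 in DMSO and a median of 7.46. Its DMSO values followed the replicate number, with both replicate 1 arrays (9.03 and 8.93) above the other 4, and the difference was -2.05 (SE 0.31, limma adjusted p = 2.11e-04).

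**Figure D5:**
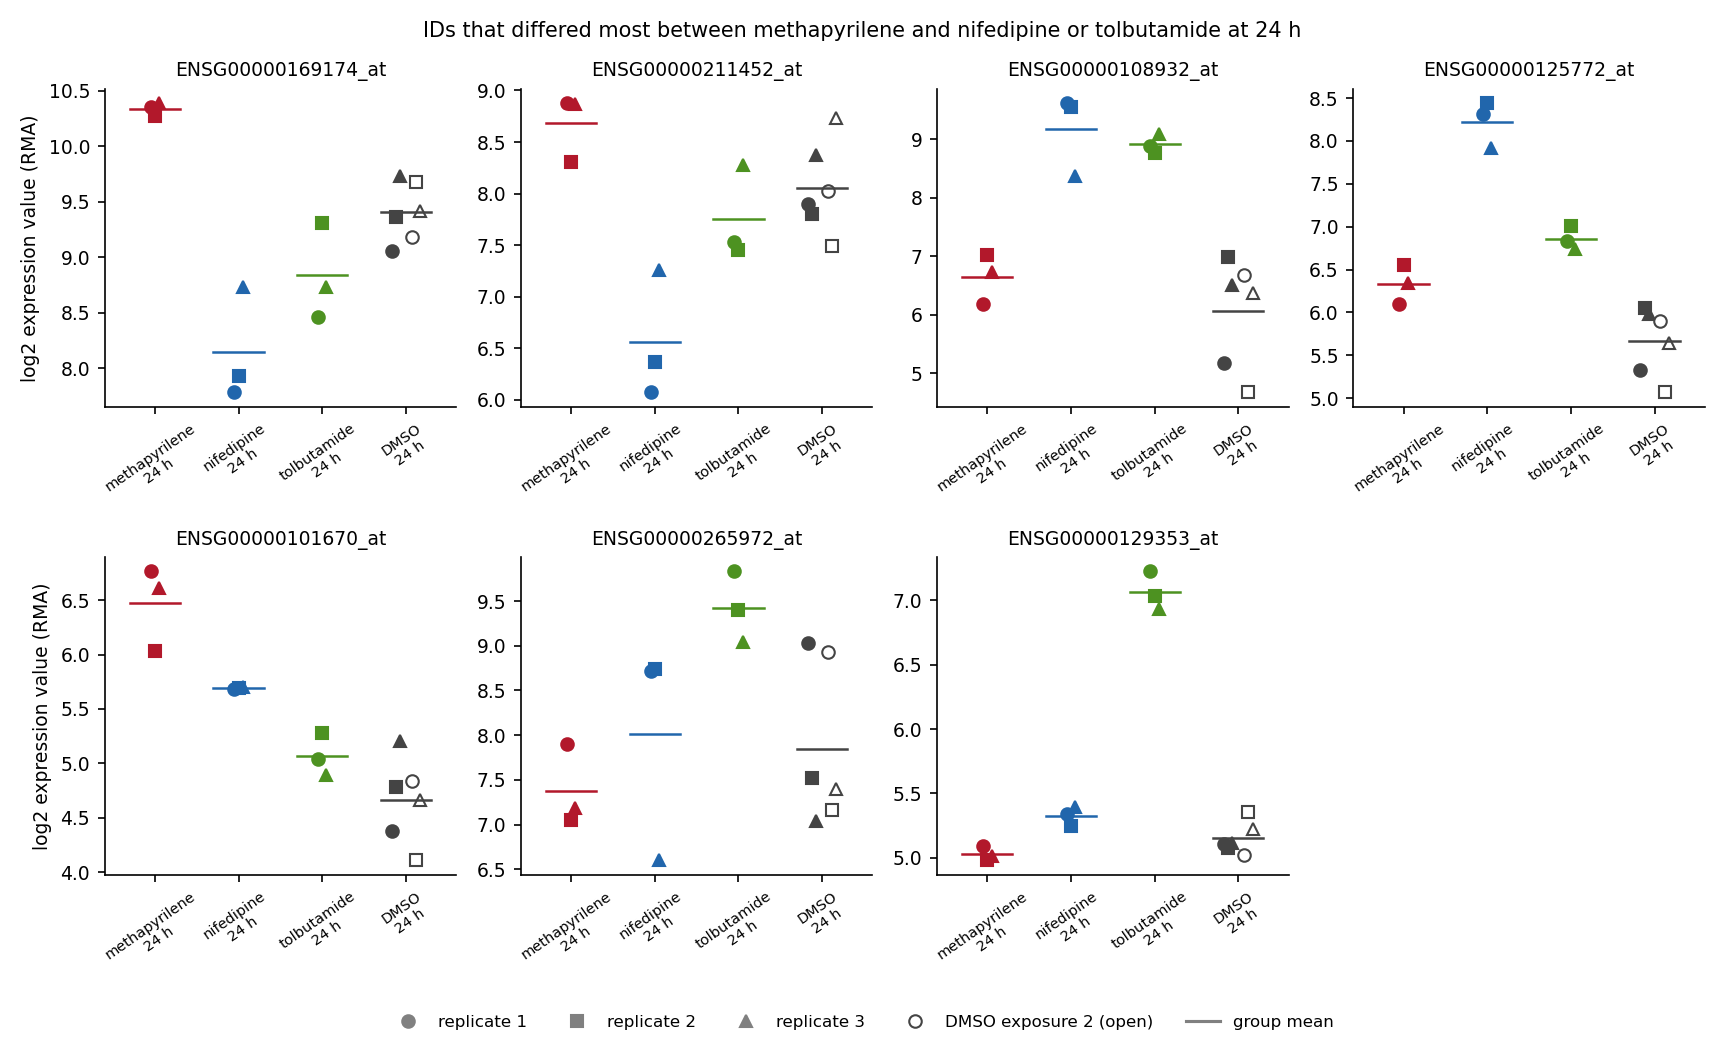
Log2 expression values by array (vertical axis, RMA) at 24 h of the 7 IDs named for the comparisons with nifedipine and tolbutamide, in methapyrilene (red), nifedipine (blue), tolbutamide (green) and DMSO (dark grey, open for exposure 2) arrays; symbols mark the replicate number and lines the group means. In ENSG00000169174_at and ENSG00000101670_at the 3 methapyrilene arrays are above all other arrays shown, and in ENSG00000129353_at the 3 tolbutamide arrays, between 6.93 and 7.23, stand apart from the others shown.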

How the data were processed

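Per the labels' protocols, HepG2 cells in 6-well plates received compound or solvent in fresh medium, and RNA extracted with Trizol was labelled with biotin by the Affymetrix procedure. The deposited values are log2 expression values that the authors made with RMA, per the submitters' processing notes. Neither its version nor how probes were grouped into genes is stated in the sources used here. Values were analysed as deposited with limma 3.58.1 under R 4.3.3 (two-sided moderated tests from lmFit and eBayes), with no filter, in 1 fit of 54 arrays with 16 groups and the replicate number within time as a fixed block (6 levels), which left 34 residual degrees of freedom. P-values were adjusted by Benjamini-Hochberg over all 20056 rows within each contrast and called under 0.05. Fold changes were computed from the fitted log2 differences. No array pair was identical (highest correlation 0.997). The labels name the replicates biological, without saying what separates them, so p-values measure the spread between these cultures.

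The pairing rests on the labels' matching controls. Deviations from group means of the methapyrilene and DMSO arrays at 24 h correlated across genes between 0.17 and 0.51 in the 6 pairs with the same number, and between -0.35 and -0.01 in the 12 pairs with different numbers.

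The comparison, the gene lists and the tests were chosen with earlier results of these data known. Since 0 IDs matched a symbol, gene lists, cell markers and promoter sequences were not analysed here, and the naming rule (the largest called differences, for the DMSO comparison with all 3 replicates moving the same way) was reduced to 2 IDs per direction. The limma step was tested on simulated data. Alternatives were other sets of arrays in the fit, no block, DMSO exposures averaged or single, a share of 0.25 of rows with the lowest mean left out, median centring, cyclic loess, the trend and robust options of eBayes, and single arrays left out; those that leave out single arrays of other compounds, the 48 h counts by setting, and the overlap and replicate 2 values without DMSO 24 h exposure 2 replicate 2 were chosen after seeing the data. No scan date is stated in the sources used, and no batch besides the replicate number was tested.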

Additional observations from a re-analysis of the deposited data

Results flagged for a closer look

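Some DMSO arrays lay far from the rest of their group. Of 25 DMSO groups of 6 values tested with Dixon's criterion, 3 held such an array. Chance flags about 1 in 20 independent groups, but these groups share the same arrays, so the count cannot be set against that rate. The compressed range of DMSO 24 h exposure 2 replicate 2 was also known before the test. The slope of DMSO 24 h exposure 2 replicate 2 on the mean of all arrays was 0.911, with the next lowest DMSO 24 h array at 1.01. The same array had the lowest DMSO value of ENSG00000107984_at, at 8.01, with the next at 9.33. DMSO 48 h exposure 1 replicate 1 had the highest DMSO value of ENSG00000163393_at at 48 h, at 5.40, with the next at 4.89 and the 3 methapyrilene 48 h arrays at 7.19 or above.

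The response to methapyrilene differed between the times in the direct test for 4 named IDs. They were named for that difference, so this is not a separate result. The change at 48 h minus the change at 24 h was 2.70 for ENSG00000078081_at, 2.49 for ENSG00000163393_at, -1.33 for ENSG00000139055_at and -1.04 for ENSG00000256235_at. The last of these was lost in 36 of 60 alternative settings.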

How the results depend on the processing

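In all 65 settings of methapyrilene against DMSO the 307 calls kept their sign wherever they were tested, no named ID changed its sign in the settings of its comparison, and falls outnumbered rises, while counts of calls moved. Of all IDs, called or not, 58.7 percent had a negative change in the main fit. In many of the 65 settings the sign could not change, because the fitted change stays the same by design. This holds without arrays outside the comparison, without rows of low mean, without the block, with averaged DMSO exposures and with the eBayes options. For methapyrilene against DMSO at 24 h (307 calls, 125 higher, 182 lower) the counts were 90 (35 and 55) with only the 9 arrays in the fit, 164 (57 and 107) without the replicate block, 158 (52 and 106) with DMSO exposures averaged, 153 (48 and 105) and 152 (58 and 94) with DMSO exposure 1 or 2 alone, and 772 (274 and 498) without the 4 arrays with a slope under 0.95. They were 246 with arrays centred, 403 with cyclic loess, 279 with trend and robust options, 288 with only 24 h arrays and 329 without the share of 0.25 of rows with the lowest mean. Leaving out each of the 54 arrays gave 129 to 474 calls (39 to 201 higher, 90 to 273 lower). The other counts without the replicate block were 5 for the time difference, 115 against nifedipine and 31 against tolbutamide, and without the 4 arrays 112, 866 and 222. Leaving out single arrays gave 5 to 27, 125 to 413 and 25 to 106. Against nifedipine, 69.1 percent of calls were higher under methapyrilene, and 55.7 percent without the 4 arrays. Against tolbutamide, 40.3 percent were higher, and 57.1 percent with cyclic loess. The fit of 9 arrays had 5 residual degrees of freedom, against 34 with all arrays, and without the 4 arrays the median standard error was 0.12, against 0.16. The cause of the other differences was not tested. No signal over background is given in these values, so dim IDs could not be set apart.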
